A study of Mus musculus with 6 samples.

Results

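The genes described here encode enzymes of the tricarboxylic acid (TCA) cycle, the malate-aspartate shuttle, ketone body use and the breakdown of the branched-chain amino acids. They are 34 of the 21776 genes in the deposited table and were taken by gene symbol from a list drawn up for their place in these pathways, with no measured value in the rule. All 34 were found. By step they are 12 genes of the TCA cycle, 4 of the malate-aspartate shuttle, 3 of ketone body use, 5 of the steps common to leucine, isoleucine and valine, 4 of the leucine branch and 6 of the valine and propionate branch. The 34 genes were read from stranded total RNA libraries of whole mouse hearts, 3 from *Trdn-as* KO mice and 3 from WT mice. *Trdn-as*, a long non-coding RNA of cardiomyocytes, runs antisense to *Trdn*, the gene of the calcium release protein triadin. The KO mice are homozygous for a polyA signal that was placed by Cas9 into the first exon of *Trdn-as* in embryonic stem cells, and chimeras were crossed back to C57BL/6. The insertion is present in every cell of the animal, although the series text describes the hearts as deficient in cardiomyocytes. The labels name no Cre, transgene or treatment in either group, and do not give the strain of the WT mice. The study's supplement gives the RNA-seq as 3 hearts per group, 1 library each. Age and sex of the 6 hearts are not given in the sources used here.

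In the heart, acetyl-CoA from fatty acids, pyruvate, ketone bodies and amino acids enters the TCA cycle in the mitochondrial matrix, and the cycle passes electrons to the respiratory chain. Ketone bodies made by the liver are burnt in the heart after *Oxct1* has activated acetoacetate with CoA taken from succinyl-CoA, an intermediate of the cycle. Leucine, isoleucine and valine share a transamination and an oxidative decarboxylation, after which each carbon skeleton has its own route to acetyl-CoA or succinyl-CoA.

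The values are read counts divided by a size factor per library, called normalised reads below. Those of *Trdn-as*, listed as *AC157017.2*, were 1, 0 and 1 in KO and 690, 773 and 688 in WT replicates 1 to 3, so the labels hold for all 6 libraries. The deposited values of a library summed to 3.13 to 3.25 M, and the libraries held an estimated 2.59 to 3.62 M counted reads, with WT replicate 1 the shallowest. All 9 cardiomyocyte markers were found in each heart, *Myh6* at 4985 to 6643 normalised reads, which fits the labelled tissue. In the fit of all genes by limma on log2(value + 1), 13753 genes with a mean of at least 10 were tested, and the median log2 fold change, KO against WT, was 0.00.

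All 34 genes were well measured in the heart. Divided by exonic length, the highest was *Oxct1*, at 599 ± 55.7 normalised reads per exonic kilobase in WT and 536 ± 16.6 in KO (SD, n = 3). *Ogdh*, the substrate-binding subunit of alpha-ketoglutarate dehydrogenase, was next at 466 ± 52.3 per kilobase in WT and 427 ± 6.24 in KO. *Idh2* and *Got1* followed with WT means of 452 and 359.7 per kilobase. The lowest levels were those of *Auh*, at 33.8 ± 0.844 per kilobase in WT, and *Abat*, at 14.8 ± 0.563. The TCA cycle and shuttle genes filled most of the upper ranks, and the branched-chain genes most of the lower ones. Exonic length is the union of all annotated exons of a gene, so that a gene with long alternative exons, such as *Mccc1* with 10952 bases, is placed lower than its main transcript would be. Duplicate reads were removed by the authors before counting, and the effect of this on the levels of the upper ranks was not tested. The lowest heart of *Oxct1*, at 525 per kilobase, lay above the highest of *Ogdh*, at 519. The hearts of *Ogdh* and *Idh2* overlapped, while every heart of *Idh2* lay above every heart of *Got1*, as the plot of levels per kilobase shows. Summed, the 34 genes made up 0.792, 0.767 and 0.792% of all normalised reads in KO and 0.869, 0.825 and 0.781% in WT.

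**Figure D1:**
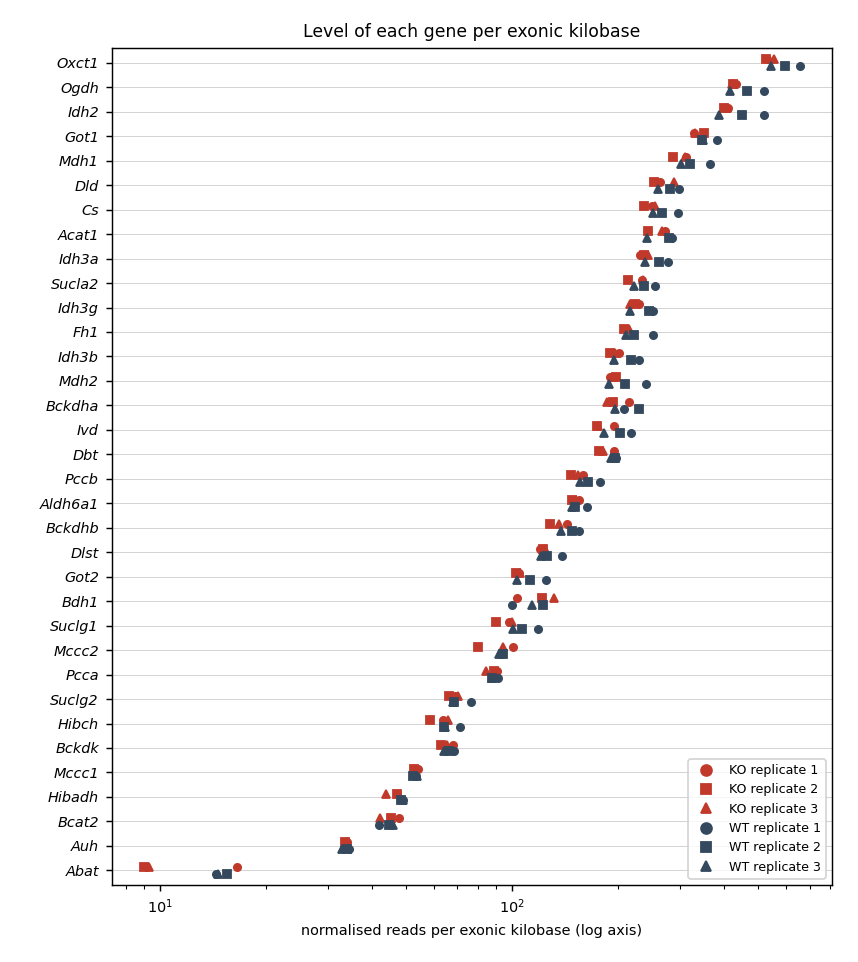
Level of each of the 34 genes in each heart, in normalised reads per exonic kilobase on a log axis, with KO hearts in red and WT hearts in dark blue and 1 symbol per replicate number. *Oxct1* is highest with a WT mean of 599 per kilobase and *Abat* lowest with 14.8, and for most genes the circle of WT replicate 1 lies farthest to the right.

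Promoters of nuclear genes for mitochondrial enzymes are known to bind the estrogen-related receptors, NRF1 and ETS factors such as GABPA. Windows from 250 bases before to 50 after the annotated start were taken from RefSeq (GRCm38.p6) and matched by symbol for 30 of the 34 genes. They were searched on both strands for AAGGTCA (estrogen-related receptors, TGACCTT on the other strand), CGCATGCG (NRF1, its own reverse complement) and CCGGAAGT (ETS, ACTTCCGG on the other strand). No motif is contained in another. AAGGTCA was found in the windows of 2 genes, *Got1* and *Ogdh*, beside 5.38% of the 27025 genes with a window. CGCATGCG was found in 2 genes, *Ogdh* and *Pccb*, beside 2.07% of genes, and CCGGAAGT in 1 gene, *Dlst*, beside 4.31%. Most of the 30 windows thus held none of the 3 exact motifs, and a match is a description of letters and no evidence of binding. Stretches of 60 bases are shown for the 3 genes with a match before the start that are described below, 5′ to 3′ on the gene's own strand with the matched letters in capitals. They are chr19:43524796-43524855 on the minus strand for *Got1*, chr9:101034885-101034944 on the minus strand for *Pccb* and chr11:6292498-6292557 on the plus strand for *Ogdh*.
Got1: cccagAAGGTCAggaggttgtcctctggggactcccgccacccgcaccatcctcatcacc
Pccb: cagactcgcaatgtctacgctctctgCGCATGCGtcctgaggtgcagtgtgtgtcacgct
Ogdh: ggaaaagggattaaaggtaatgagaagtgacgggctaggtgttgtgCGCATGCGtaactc

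The comparison of KO with WT asks whether the loss of *Trdn-as* went with other levels of these transcripts. Most of the 34 genes were slightly lower in KO hearts, and for no gene was the difference past the threshold of an adjusted p of 0.05. The estimate was lower in KO for 31 genes and higher for 3, namely *Bdh1*, *Bcat2* and *Auh*. Of all genes tested, 49.4% were lower in KO. The median log2 fold change of the 34 was -0.09, or -6.07%, beside 0.00 for all genes tested. With Benjamini-Hochberg adjustment over all genes in limma, 0 of the 34 passed, against 0.0291% of all genes, and their smallest adjusted p was 0.843. The genes *Suclg1*, *Oxct1*, *Cs*, *Ivd* and *Abat*, 5 in all, had an unadjusted p under 0.05 and were each lower in KO, where 5.74% of all genes were under 0.05 in either direction and 2.8% were lower in KO. By limma-voom 0 of the 34 passed the adjusted threshold and 3 had an unadjusted p under 0.05. Every KO value lay below every WT value in 2 genes, *Suclg1* and *Hibadh*, a pattern seen in 4.44% of all genes. In whole hearts, fewer cells of a type and less RNA per cell cannot be told apart. Read depth differed too, since every KO library held more estimated reads than WT replicates 1 and 2. Its part in the lower values was not tested.

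The order of the hearts was shared by many of the genes. WT replicate 1 was the highest of the 6 hearts in 27 of the 34 genes, and KO replicate 2 the lowest in 19. Of the 13753 genes tested, WT replicate 1 was highest in 2867 and KO replicate 2 lowest in 2581. The mean deviation of the 34 genes from their means over all hearts, in log2 units, was -0.00, -0.09 and -0.04 in KO and 0.12, 0.05 and -0.04 in WT. The KO hearts thus lay together at and below the middle, while the WT hearts spread from WT replicate 1 down to the level of KO replicate 3, and the groups overlapped. WT replicates 1 and 2, with the highest mean deviations, had the fewest estimated reads, 2.59 and 3.04 M. The other hearts had 3.135 to 3.62 M. The part of read depth, with duplicates removed before counting, was not tested. Without WT replicate 1 the median log2 fold change was -0.04, 26 genes were lower and 0 had an unadjusted p under 0.05. The number under 0.05 was also 0 without KO replicate 2 or WT replicate 2, 3 without KO replicate 3 and 15 without WT replicate 3. It was 4 without KO replicate 1, with *Abat*, *Ivd* and *Suclg1* lower in KO and *Bdh1* higher. Of all genes tested, 8.24, 4.66 and 3.69% were under 0.05 without KO replicates 1, 2 and 3. The shares were 4.355, 4.73 and 8.60% without WT replicates 1, 2 and 3. Non-overlapping genes numbered 8 without KO replicate 1, 7 without KO replicate 3 and 20 without WT replicate 3. Counts with fewer hearts are not of the same kind as those with 6, since smaller groups overlap less easily. No share over all genes is given beside these counts without overlap, so they are not read as a result about the 34 genes.

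**Figure D2:**
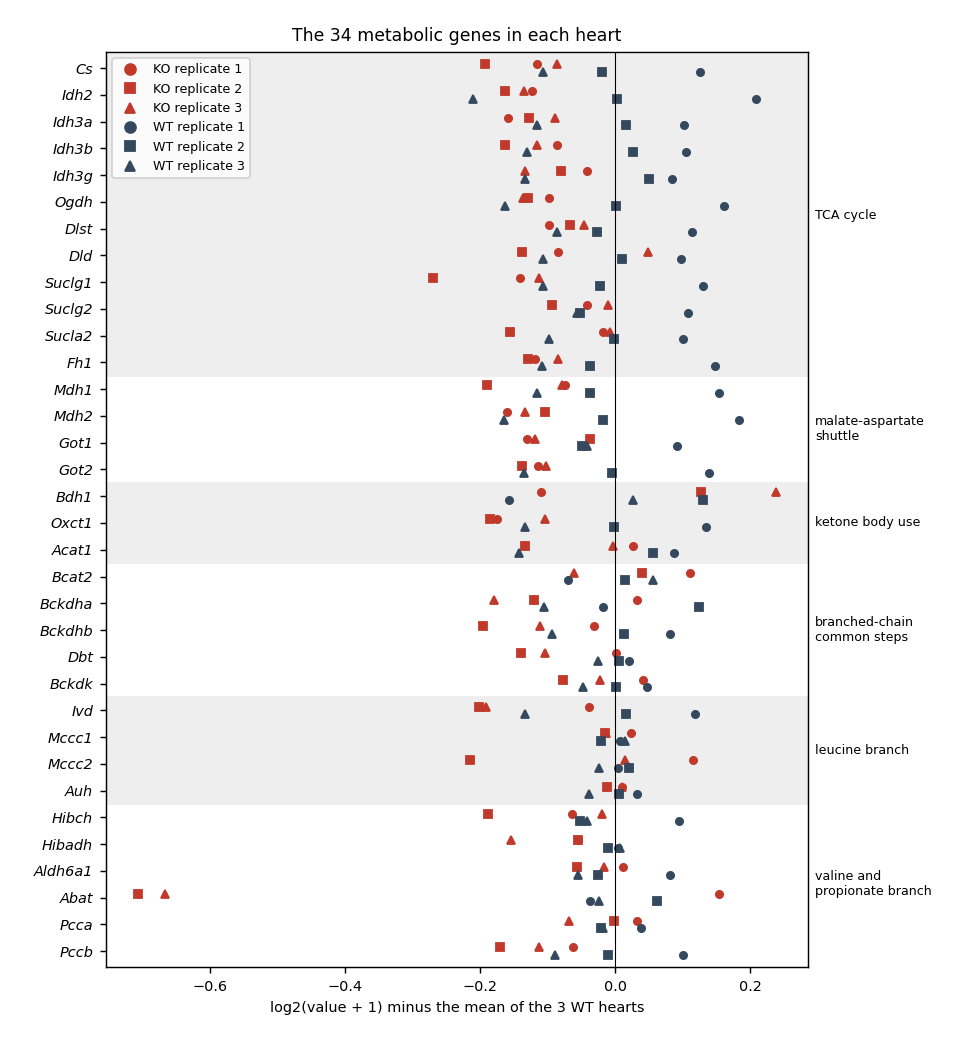
Each of the 34 genes in each heart as log2(value + 1) minus the mean of the 3 WT hearts, KO in red and WT in dark blue, 1 symbol per replicate number, grouped by pathway step. WT replicate 1 (dark circle) is the highest heart in 27 genes and WT replicate 3 (dark triangle) often lies among the KO hearts.

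Standard errors of the log2 fold changes ran from 0.06 to 0.17, with a median of 0.07, which is smaller than the median of 0.12 over all genes. The 95% intervals of the 33 genes other than *Abat* lay between -0.33 and 0.27. A 2-fold difference in these normalised reads, in either direction, therefore lay outside the interval of all 34 genes. Duplicates were removed before counting, and the effect of this on the fold changes of abundant genes was not tested.

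**Figure D3:**
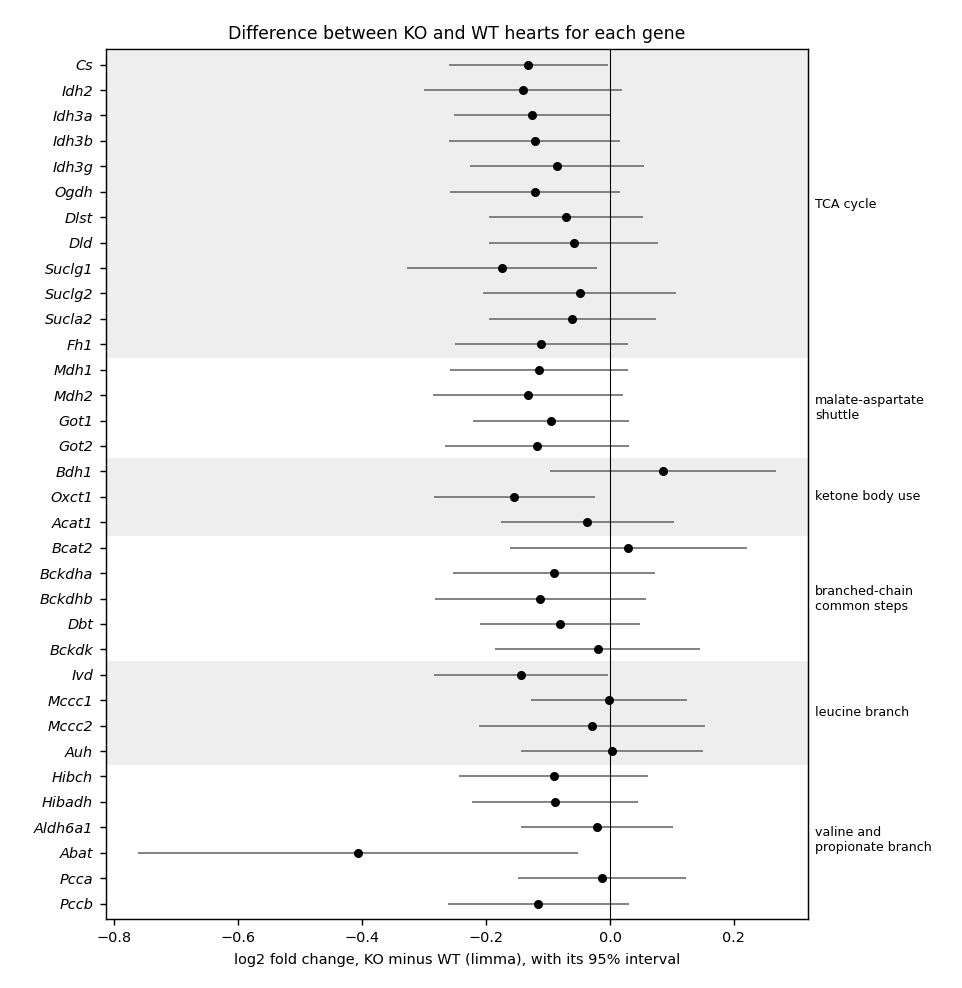
Log2 fold change, KO minus WT, of the 34 genes with its 95% interval from limma on all genes, grouped by pathway step. Of the 34 points 31 lie to the left of 0, and the intervals of 5 genes, *Cs*, *Suclg1*, *Oxct1*, *Ivd* and *Abat*, do not reach 0 before adjustment.

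All 12 genes of the TCA cycle had lower estimates in KO, from -0.18 to -0.05 on the log2 scale with a median of -0.12. Each was also lower under all 10 other scalings, filters and models with the 6 hearts, and 0 of 12 passed the adjusted test. *Suclg1* (ENSMUSG00000052738, chr6:73248382-73276911, plus strand, GRCm38) encodes the alpha subunit shared by both succinyl-CoA ligases. It was read at 454, 415 and 463 normalised reads in KO and at 548, 493 and 465 in WT, in the order of replicates 1 to 3. No KO heart reached a WT heart, although replicate 3 was nearly equal in KO and WT. The means were 444 ± 25.5 in KO and 502 ± 42.2 in WT (SD, n = 3), a log2 fold change of -0.18 (SE 0.07, 95% interval -0.33 to -0.02, unadjusted p = 0.0275, adjusted p = 0.851 by limma).

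*Cs* (ENSMUSG00000005683, chr10:128337734-128362479, plus strand) encodes citrate synthase, which joins acetyl-CoA to oxaloacetate and opens the cycle. Its values were 1446, 1370 and 1475 in KO and 1709, 1546 and 1455 in WT. WT replicate 3 lay between the KO hearts, so the groups overlapped. The means were 1430.3 ± 54.2 and 1570.0 ± 129 (SD, n = 3), with a log2 fold change of -0.13 (SE 0.06, unadjusted p = 0.0449, adjusted p = 0.851 by limma). *Ogdh*, of highest level per kilobase in the cycle, was read at 2368, 2316 and 2304 in KO and at 2834, 2536 and 2263 in WT. Its 3 KO hearts lay close together inside the wider WT range, and the log2 fold change was -0.12 (SE 0.07, unadjusted p = 0.0791 by limma).

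The beta subunits of succinyl-CoA ligase were closer to WT than the alpha subunit. *Suclg2*, the GTP-forming subunit, had the smallest difference of the 12 genes, with 318, 307 and 325 in KO and 353, 316 and 315 in WT. *Sucla2*, the ATP-forming subunit, was at 936, 850 and 942 in KO and at 1016, 946 and 885 in WT. In both genes the groups overlapped, with log2 fold changes of -0.05 (SE 0.07) and -0.06 (SE 0.06). The NAD-dependent isocitrate dehydrogenase subunits *Idh3a*, *Idh3b* and *Idh3g* had log2 fold changes of -0.13, -0.12 and -0.09, and the NADP-dependent *Idh2* had -0.14. *Dlst* and *Dld*, the other subunits of alpha-ketoglutarate dehydrogenase, were at -0.07 and -0.06, and the fumarase gene *Fh1* at -0.11. WT replicate 1 was the highest heart in all 12 genes. The spread within groups differed too, since the SD of log2(value + 1) was smaller in KO than in WT in all 12, with medians of 0.0402 and 0.117. Over all genes tested, the SD was smaller in KO in 51.5%. A narrower KO spread was also seen in other lists, where the SD of the mean score, beside 0.0344 in KO and 0.121 in WT for the 12 genes, was 0.0176 and 0.123 for respiratory chain genes, 0.0123 and 0.0787 for fatty acid oxidation, and 0.0382 and 0.180 for cardiomyocyte markers. Estimated reads per library also spread more widely in WT, at 2.59 to 3.46 M, than in KO, at 3.135 to 3.62 M. The part of this in the spread of the values was not tested. When WT replicate 1 was left out, the 12 genes had a median of -0.04, and the sign of *Suclg2* turned, at 0.00.

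The 4 genes of the malate-aspartate shuttle, which carries reducing equivalents into the mitochondrion, had log2 fold changes of -0.13 to -0.10 with a median of -0.12, and 0 of 4 had an unadjusted p under 0.05. *Mdh2*, the mitochondrial malate dehydrogenase that also closes the TCA cycle, showed the largest difference. It was read at 675, 702 and 688 in KO and at 857, 745 and 673 in WT, with WT replicate 3 below all KO hearts (log2 fold change -0.13, SE 0.07). The cytosolic form *Mdh1* was at 799, 738 and 797 in KO and at 936, 820 and 777 in WT. *Got1*, the cytosolic aspartate aminotransferase and the most abundant of the 4 per kilobase, was at 833, 889 and 840 in KO and at 972, 882 and 886 in WT. Only WT replicate 1 stood clear of the KO hearts for *Got1*, and its log2 fold change was -0.10 (SE 0.06). Values of the mitochondrial form *Got2* were 504, 496 and 508 in KO and 601, 544 and 497 in WT. In each of the 4 genes the 3 KO hearts were closer to each other than the 3 WT hearts were, and WT replicate 1 was highest. When that heart was left out, the 4 genes had a median of -0.04.

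Of the 3 genes of ketone body use, *Oxct1* was lower, *Acat1* near WT and *Bdh1* slightly higher in KO. *Oxct1* (ENSMUSG00000022186, chr15:4026383-4155344, plus strand) encodes succinyl-CoA:3-ketoacid CoA transferase, the step that commits acetoacetate to oxidation. Its normalised reads were 1957, 1943 and 2056 in KO and 2426, 2207 and 2014 in WT. Only WT replicate 3 lay within the KO range. The means were 1985 ± 61.6 and 2216 ± 206 (SD, n = 3), and the log2 fold change was -0.15 (SE 0.06, 95% interval -0.28 to -0.02). Its unadjusted p of 0.0221 was the smallest of the 34 genes, and its adjusted p by limma was 0.843. Leaving out 1 heart gave log2 fold changes from -0.22 to -0.09 for *Oxct1*.

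*Bdh1*, which oxidises beta-hydroxybutyrate to acetoacetate, was read at 402, 474 and 512 in KO and at 389, 475 and 442 in WT. The groups overlapped, and replicate 1 was the lowest heart in each. Its log2 fold change of 0.09 (SE 0.09, unadjusted p = 0.342 by limma) was the highest of the 34 genes. Leaving out 1 heart moved this value between 0.00676 and 0.183, and without KO replicate 1 its unadjusted p by limma was under 0.05. *Acat1*, the mitochondrial thiolase that splits acetoacetyl-CoA and also ends isoleucine breakdown, stood at -0.04 (SE 0.07). Its sign turned under cyclic loess scaling, where the fitted value was 0.00. The median of the 3 genes was -0.04 and also turned under that scaling.

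The 5 genes of the common branched-chain steps had a median log2 fold change of -0.08, with 4 lower and 1 higher in KO and 0 under an unadjusted p of 0.05. *Bcat2*, the mitochondrial aminotransferase of the first step, was read at 186, 177 and 165 in KO and at 164, 174 and 179 in WT (log2 fold change 0.03, SE 0.09). *Bckdhb*, the beta subunit of the decarboxylase of branched-chain ketoacid dehydrogenase, was at 259, 231 and 245 in KO and at 280, 267 and 248 in WT. This was the largest difference of the 5, at -0.11 (SE 0.08), with overlapping groups. *Bckdha*, the alpha subunit and the most abundant of the 5 per kilobase, was at 409, 368 and 353 in KO and at 395, 436 and 372 in WT (-0.09, SE 0.08). Of its exonic bases 61.7% are overlapped by exons of *B3gnt8* on the opposite strand, which the authors' strand-aware counting kept apart. *Dbt*, the transacylase subunit, had a log2 fold change of -0.08. *Bckdk*, the kinase that switches the complex off, was at 252, 232 and 241 in KO and at 253, 245 and 237 in WT (-0.02, SE 0.08). Its sign depended on the scaling, with 0.00 after scaling to the total of the values and in limma-voom.

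In the leucine branch *Ivd* was lower in KO and the 3 genes after it lay close to WT. *Ivd* (ENSMUSG00000027332, chr2:118861954-118882909, plus strand) encodes isovaleryl-CoA dehydrogenase, the first step that only leucine takes. It was read at 1073, 958 and 965 in KO and at 1196, 1114 and 1005 in WT. KO replicate 1 lay above WT replicate 3, and the other KO hearts lay below all WT hearts. The log2 fold change was -0.14 (SE 0.07, unadjusted p = 0.0452, adjusted p = 0.851 by limma).

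*Mccc1* and *Mccc2* encode the alpha and beta subunits of methylcrotonyl-CoA carboxylase. *Mccc1* was read at 592, 576 and 577 in KO and at 585, 574 and 588 in WT, with the 6 hearts close together and mixed. Its log2 fold change of -0.00 had a 95% interval of -0.13 to 0.12, and its sign turned under 3 of the 10 alternatives with all hearts and 4 of the 6 that left out a heart. *Mccc2* was at 283, 225 and 264 in KO and at 262, 265 and 257 in WT, with KO hearts at both ends of the range (-0.03, SE 0.09). *Auh*, the methylglutaconyl-CoA hydratase, was at 326, 321 and 326 in KO and at 331, 325 and 315 in WT (0.00, SE 0.07). The median of the 4 genes was -0.02, and it was 0.01 after scaling to the total and in limma-voom.

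The 6 genes of the valine and propionate branch were all lower in KO by estimate, with a median of -0.09. *Abat* (ENSMUSG00000057880, chr16:8513429-8621568, plus strand) encodes the mitochondrial GABA aminotransferase, which also acts on beta-alanine. Its normalised reads were 128, 70 and 72 in KO and 112, 120 and 113 in WT. KO replicate 1 was thus the highest of the 6 hearts, while the other KO hearts were lower than every WT heart. The means were 90.0 ± 32.9 and 115 ± 4.36 (SD, n = 3), and the log2 fold change was -0.41 (SE 0.17, 95% interval -0.76 to -0.05, unadjusted p = 0.0269, adjusted p = 0.851 by limma). Without KO replicate 1 it was -0.69 with an adjusted p of 0.0225 by limma, in a fit in which 32 genes passed in place of 4. *Abat* was the only one of the 34 genes to pass in any of the 6 fits that left out a heart.

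*Hibadh* (ENSMUSG00000029776, chr6:52546228-52640389, minus strand) encodes the dehydrogenase of hydroxyisobutyrate, an intermediate of valine. It was read at 479, 479 and 447 in KO and at 499, 494 and 500 in WT. The KO hearts all lay below the WT hearts, by a small margin. The log2 fold change was -0.09 (SE 0.06, unadjusted p = 0.185, adjusted p = 0.905 by limma). *Hibch*, which acts just before it, was at -0.09, and *Aldh6a1*, which makes propionyl-CoA from methylmalonate semialdehyde, at -0.02.

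Propionyl-CoA carboxylase has an alpha subunit, *Pcca*, and a beta subunit, *Pccb*. *Pcca* was at 473, 462 and 441 in KO and at 475, 456 and 457 in WT (-0.01, SE 0.07). *Pccb*, the most abundant of the 6 per kilobase, was at 441, 409 and 426 in KO and at 494, 457 and 433 in WT (-0.12, SE 0.07). In *Pccb* only KO replicate 1 lay above a WT heart, whereas the *Pcca* values were mixed. The signs of *Aldh6a1* and *Pcca* turned after scaling to the total and in limma-voom, to 0.00 and 0.01.

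**Figure D4:**
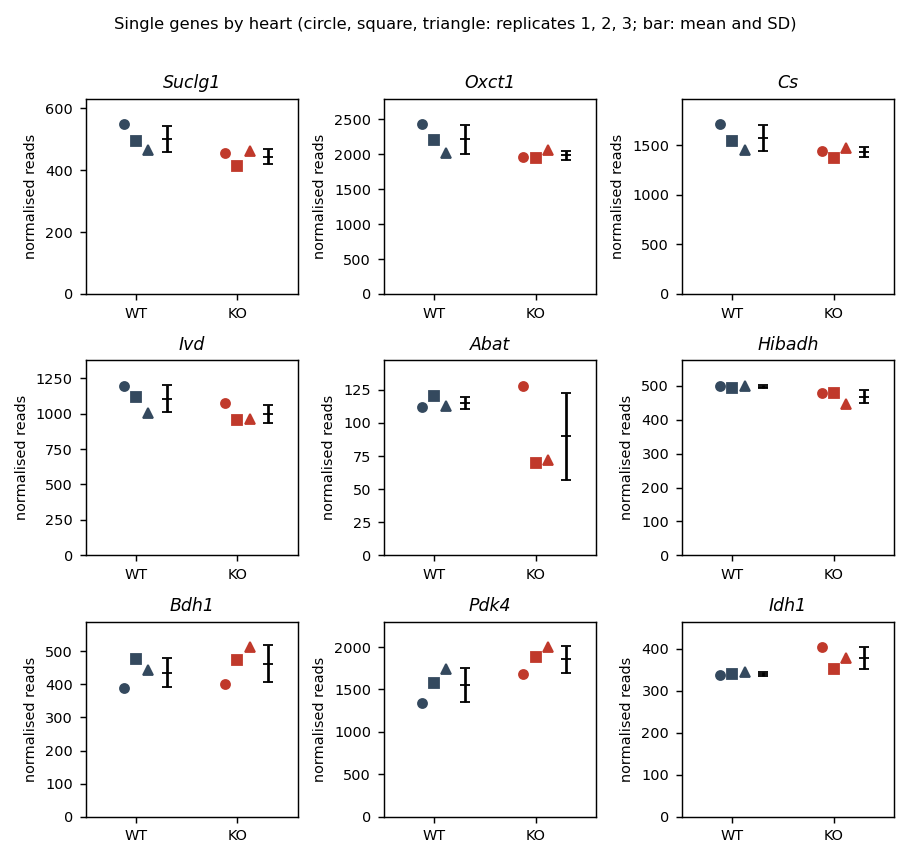
Normalised reads of single genes in each heart, WT in dark blue and KO in red with circle, square and triangle for replicates 1, 2 and 3, beside the mean and SD (n = 3). KO values of *Suclg1* and *Hibadh* lie below all WT values, *Abat* is split by KO replicate 1 at 128, and *Pdk4* and *Idh1*, from outside the 34 genes, are higher in KO on average.

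Ratios of partner genes within a heart do not depend on a scaling by 1 factor per library, though cyclic loess, which scales by level, turned the sign of *Suclg2* to *Sucla2* (-0.02). For 6 pairs the log2 ratio of KO minus WT was 0.01 for *Suclg2* to *Sucla2*, 0.02 for *Got1* to *Got2*, 0.02 for *Mdh1* to *Mdh2*, 0.07 for *Bckdk* to *Bckdha*, 0.03 for *Mccc1* to *Mccc2* and 0.10 for *Pcca* to *Pccb*. The groups overlapped in all 6. The *Pcca* to *Pccb* ratio was 0.10, 0.18 and 0.05 in KO and -0.06, -0.00 and 0.08 in WT, with the smallest p of the 6 (exact two-sided permutation test, p = 0.2). The adjusted p over the 6 ratios was 0.9 for each, and 0.1 is the smallest p that 3 against 3 can give.

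Other genes of the same pathways were looked up from a list of 54, of which 49 were tested. In KO 33 were lower and 16 higher by estimate, with a median log2 fold change of -0.06, and 0 passed the adjusted test. Of those with an unadjusted p under 0.05, *Pdk4* is described here. *Pdk4*, the kinase that closes pyruvate dehydrogenase, was at 1682, 1885 and 1998 in KO and at 1337, 1574 and 1742 in WT (log2 fold change 0.26, SE 0.08, unadjusted p = 0.00339, adjusted p = 0.744 by limma). Its groups overlapped through WT replicate 3. The log2 fold change was 0.16 (unadjusted p = 0.0379 by limma) with WT replicate 1 left out, and the unadjusted p was 0.0749 without the mean-variance trend.

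Non-overlapping groups were found for *Idh1* and *Slc25a11* among these genes. *Idh1*, the cytosolic isocitrate dehydrogenase, was at 404, 351 and 378 in KO and at 337, 339 and 346 in WT, a log2 fold change of 0.15 (unadjusted p = 0.0587 by limma) and of the opposite sign to the mitochondrial *Idh2*. *Slc25a11*, the carrier that exchanges malate for alpha-ketoglutarate in the shuttle, was at 597, 568 and 580 in KO and at 684, 618 and 612 in WT (-0.13, unadjusted p = 0.0539 by limma). The 5 tested ketone body genes outside the 34 went the other way as a list, with 3 higher and 2 lower by estimate and a median of 0.04. Their mean score was -0.01, 0.09 and 0.11 in KO and -0.06, -0.09 and -0.04 in WT, so that the KO hearts lay above the WT hearts, while their summed levels overlapped at 2375 to 2447 in KO and 2358 to 2521 in WT. The succinate dehydrogenase subunits *Sdha*, *Sdhb*, *Sdhc* and *Sdhd* were at -0.13, -0.14, -0.14 and -0.04.

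Nuclear genes of the respiratory chain and of fatty acid oxidation had differences of a like size, and WT replicate 1 was again the heart with the highest mean score. Of 27 respiratory chain genes 25 were lower in KO, with a median of -0.11 and 4 at an unadjusted p under 0.05. Of 23 genes of fatty acid oxidation 19 were lower, with a median of -0.09 and 2 at an unadjusted p under 0.05. With WT replicate 1 left out, the medians were -0.06 for the respiratory chain and -0.03 for fatty acid oxidation. The mean score of the 34 genes less that of the respiratory chain genes differed between KO and WT by 0.02 (exact two-sided permutation test, p = 0.5, n = 3), and less that of the fatty acid genes by -0.03 (exact p = 0.3, n = 3). The smallest p that 3 hearts against 3 can give is 0.1, so these tests could not have passed 0.05 and do not show whether the lists differ.

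Cardiomyocyte markers had differences in the same direction. All 9 were lower in KO (median log2 fold change -0.16), 6 of them at an unadjusted p under 0.05, and 0 passed the adjusted test. Their summed level was 23388 to 24806 in KO and 24180 to 29859 in WT, highest in WT replicate 1, and without that heart their median was -0.06. Across the 6 hearts their mean score fell as the estimated reads rose, and the part of read depth was not tested. The score of the 34 genes less that of the cardiomyocyte markers differed by 0.07 (exact two-sided permutation test, p = 0.4, n = 3, with the same lower limit of p). Summed levels of the other cell types overlapped, at 3934 to 4523 in KO and 4143 to 4470 in WT for 8 fibroblast genes and at 3853 to 4403 and 3827 to 4360 for 6 endothelial genes. The 6 leukocyte genes summed to 823 to 1150 in KO and 947 to 1053 in WT, and 6 smooth muscle and pericyte genes to 2833 to 3120 and 2879 to 3295. The mean score of 4 atrial genes was 0.19, 0.40 and -0.34 in KO and -0.46, 0.05 and 0.15 in WT, lowest in WT replicate 1 and highest in KO replicate 2, and their summed levels were 434 to 620 in KO and 449 to 566 in WT. Red blood cell genes were lower in KO in 5 of 5, with none at an unadjusted p under 0.05. Of the white fat markers *Adipoq* and *Plin1* reached 13 and 15 in KO replicate 2 and at most 8 in the other hearts. Their part in the lower values of the 34 genes was not tested.

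A list of 6 genes known to rise with fasting, *Pdk4* among them, was higher in KO in 6 of 6 with a median log2 fold change of 0.34, and 4 had an unadjusted p under 0.05. The mean scores were 0.01, 0.34 and 0.25 in KO and -0.55, -0.18 and 0.13 in WT. WT replicate 1, the highest heart for the 34 genes, was the lowest for this list, and without it the median was 0.16. Its part in the result was not tested, and feeding and time of day at collection are not given in the sources used here.

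**Figure D5:**
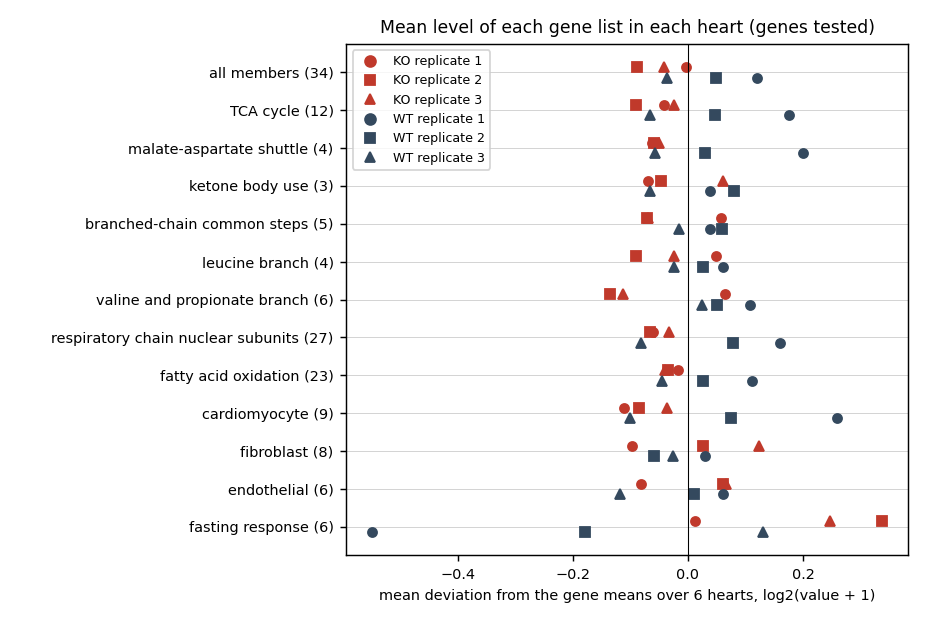
Mean deviation of each gene list from the gene means over the 6 hearts, in log2(value + 1), with KO in red and WT in dark blue, 1 symbol per replicate number and the number of genes tested in brackets. WT replicate 1 stands at 0.12 for the 34 genes, at 0.26 for cardiomyocyte markers and at -0.55 for the fasting list, and the groups overlap in every list drawn.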

How the data were processed

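The data were the heart libraries of 3 *Trdn-as* KO and 3 WT samples. According to the study's methods and the submitters' notes, the authors trimmed reads with Trimmomatic 0.39, aligned them to GRCm38 with STAR 2.6.1d, removed duplicates (Picard 2.21.1), multi-mapping, ribosomal and mitochondrial reads, and counted reads in exons by strand with featureCounts 1.6.5. The deposited value is a score per gene and library, the read count divided by the DESeq2 1.18.1 size factor and rounded. Since raw counts were not used here, limma 3.58.1 in R 4.3.3 (mean-variance trend, two-sided, Benjamini-Hochberg, threshold 0.05, 4 residual degrees of freedom) took the place of a count test, on log2(value + 1) of the 13753 genes with a mean of at least 10. Reads per library were estimated from the pattern that rounding leaves in the values. Exonic lengths came from GENCODE M21. The method was tested on simulated data.

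Values in every heart are given for genes with an unadjusted p under 0.05, without overlap, highest or lowest in fold change or highest per kilobase in a pathway step, or in a ratio. Of the 54 other genes of the same pathways, those with an unadjusted p under 0.05 or without overlap are named, a rule that does not cover the comparison and marker lists. The *Sdh* genes fall outside this rule and were added after their values were seen. A gene that the rule names is not reported here. The 34 genes and the lists were chosen with earlier results of these data known. Same-numbered hearts did not deviate together, so the main fit has no block. Alternatives were 3 other scalings, 2 filters, 2 pseudocounts, limma-voom, no trend, a replicate block and leaving out each heart.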

Additional observations from a re-analysis of the deposited data

How the results depend on the processing

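Of the 34 genes 25 kept their sign under all 16 alternatives and 9 did not. The number of the 34 with an unadjusted p under 0.05 was 5, but 3 after scaling to the total, 2 after cyclic loess, 3 in limma-voom and 0 without the mean-variance trend, and it ranged from 0 to 15 when a heart was left out. Of all genes tested, 5.74% were under 0.05 in the main fit and 5.99, 5.53, 6.035 and 5.67% in the named alternatives, in the same order. When a heart was left out, that share ranged from 3.69 to 8.60%, with the highest share in the fit that gave 15. Over all genes 4 passed the adjusted test, 2 with at least 10 in every library, 1 without the trend and 2 to 32 without a heart. Of the 34, 0 to 1 passed without a heart, and 2 to 20 did not overlap, a count given with no share over all genes. Of the log2 values that turned sign, scaling to the total gave 0.00812 for the leucine median, 0.00322 for *Bckdk*, 0.0216 for *Mccc1*, 0.00247 for *Aldh6a1* and 0.0104 for *Pcca*, and limma-voom gave 0.00886 for the leucine median, 0.00354 for *Bckdk*, 0.0223 for *Mccc1*, 0.00262 for *Aldh6a1* and 0.0109 for *Pcca*. Cyclic loess gave -0.0231 for the *Suclg2* to *Sucla2* ratio, 0.00214 for the ketone median, which is that of *Acat1*, 0.0187 for *Mccc1* and 0.014 for *Aldh6a1*. Without a heart, the log2 ratios ranged from -0.0155 to 0.07 for *Mdh1* to *Mdh2*, from -0.0138 to 0.033 for *Suclg2* to *Sucla2*, from -0.0164 to 0.0685 for *Got1* to *Got2* and from -0.0593 to 0.0857 for *Mccc1* to *Mccc2*. The log2 fold changes ranged from -0.0111 to 0.0748 for *Bcat2*, -0.0162 to 0.0195 for *Auh*, -0.108 to 0.0115 for *Acat1*, -0.0505 to 0.00892 for *Bckdk*, -0.0144 to 0.00533 for *Mccc1*, -0.100 to 0.0646 for *Mccc2*, -0.0353 to 0.0151 for *Pcca*, -0.077 to 0.00492 for *Suclg2*, -0.0485 to 0.0196 for *Aldh6a1* and -0.688 to -0.257 for *Abat*. The ketone median ranged from -0.108 to 0.0115 and the leucine median from -0.0573 to 0.00797. The cause of these shifts was not tested.

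Deviations of same-numbered hearts correlated at 0.05, -0.07 and -0.03, so the numbers do not pair the hearts. With the replicate block 5 of the 34 genes had an unadjusted p under 0.05, 0 passed the adjusted test and 4 passed over all genes, as without the block. DESeq2, planned for raw counts only, was not run, since the values are not counts. With 3 hearts a group and a median SE of 0.07, most of the differences given here have a 95% interval that includes 0, and *Abat*, at 70 to 128 normalised reads, is the least precise of the 34.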
